A study of Cricetiscus sungorus with 12 samples.

Results

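The arcuate nucleus of the hypothalamus holds the neurons through which leptin and the melanocortins act on appetite and energy expenditure. The genes described here are 10 of the 17191 records in a hypothalamic transcriptome of the Djungarian hamster, chosen by mouse GeneID for appetite peptides (18109, listed as Npy but rejected as such below, 11604 for Agrp, 18976 for Pomc, 27220 for Cartpt), the leptin receptor and genes of its signalling (16847 for Lepr, 12702 for Socs3, 20848 for Stat3, 19246 for Ptpn1) and melanocortin receptors (17201 for Mc3r, 17202 for Mc4r). All 10 were measured in every comparison. Hypothalamic mRNA came from 12 adult hamsters, 4 in each of 3 groups, each sacrificed at about ZT 4, that is 4 h after lights on. LP-NT hamsters had stayed in long photoperiod with 16 h of light and 8 h of darkness and were normothermic. SP-NT hamsters were acclimated to short photoperiod with 8 h of light and 16 h of darkness and were sampled normothermic on a day without torpor, and SP-HT hamsters, kept in the same short photoperiod, were sampled hypothermic in spontaneous daily torpor. Hamsters of LP-NT carried no temperature transmitter, unlike those in short photoperiod, so this difference and photoperiod cannot be told apart. LP-NT and SP-NT held 2 males and 2 females each, SP-HT 3 males and 1 female. Library totals of expected counts ranged from 21732663 to 22710560 for LP-NT, from 22860110 to 24186918 for SP-NT and from 20204979 to 23018123 for SP-HT.

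Arcuate neurons of 1 kind make neuropeptide Y (NPY) and agouti-related peptide (AgRP), which raise food intake. Neurons of another kind make proopiomelanocortin (POMC), the precursor of the melanocortin α-MSH, and often the peptide CART, and they lower it. Leptin from fat tissue reaches both through its receptor, which signals by JAK2 and STAT3 and is restrained by SOCS3 and the phosphatase PTP1B, the product of Ptpn1. α-MSH activates the melanocortin receptors MC3R and MC4R, and AgRP blocks them.

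The names were checked against the data. The files pair no names with the GeneIDs, and names were tested by matching the adjusted p-values and fold changes of each record with those printed for named genes of the same hamsters, for torpor by the size of the fold change and without its sign. The match held for Pomc, Cartpt, Lepr, Mc3r and Mc4r, each with a single record, and for Agrp, whose record was 1 of 17 that fitted. For Socs3, Stat3 and Ptpn1 no values were at hand, so these names rest on the choice of members. The record chosen as Npy, 18109, did not match, and the values printed for Npy belonged to record 109648 alone. The number 18109 may be that of Mycn, a transcription factor gene, which could not be checked without a table of names. Record 18109 is therefore called by its number below, and Npy stands for record 109648, which is described beside the 10 chosen records and never counted among them.

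Some libraries went against a label or stood apart. SP-NT replicate 19 is labelled male, but 2 records with between 342 and 1699 counts in the 6 other males and at most 5 in the 5 females had 0 counts in it. LP-NT replicate 01 lay farthest from the other hamsters of its group, at a distance of 32.2 in log2 CPM over the 500 most variable genes, against 24.2 to 30 for the other 11 hamsters. The record matched, by size and without sign, to Rbm3-ps, a relative of the cold-inducible Rbm3, had 14.9 ± 3.97 CPM (SD, n = 4) for LP-NT, 15.1 ± 1.502 CPM (SD, n = 4) for SP-NT and 3.10 ± 0.671 CPM (SD, n = 4) for SP-HT. The size of the difference between SP-HT and SP-NT was fixed by the match, while the LP-NT values, which the match did not use, ran from 9.005 to 17.5 CPM and lay above those of SP-HT (2.51 to 4.03 CPM). Cold is known to raise Rbm3 itself. In all 59 records matched to 1 name with a torpor value, Npy and Pomc among them, the log2(FC) of SP-HT over SP-NT as labelled had the opposite sign to the printed one. The same holds for the Rbm3-ps record. The photoperiod values bear on which group is which, since they can be matched with their sign and with no torpor value. Among the 60 records matched to 1 name the photoperiod sign was the same in 57 and opposite in 0, and for the other 3 the printed value was 0. The match used the photoperiod sign, so this agreement was fixed by it and says nothing about the labels. With the hamsters labelled SP-NT, a record was found for 65 of 65 named genes, and with those labelled SP-HT in their place for 15 of 65. Any record within the tolerance was counted, whether or not it was the gene's own, so these counts alone do not settle which group is which. Of the 4 named genes with a printed photoperiod adjusted p under 0.05, a record was found for 4 with labelled SP-NT and for 1 with labelled SP-HT. By these 4 genes, the printed photoperiod values go with the group labelled SP-NT. All directions below are those of the samples as labelled.

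Npy encodes the precursor of NPY, a strong stimulant of feeding. Its normalised counts, in CPM (counts scaled to libraries of equal effective size with TMM factors, where 1 count was 0.0403 to 0.049 CPM), were 20.1, 20.9, 16.6 and 18.8 in LP-NT replicates 01, 02, 03 and 05. They were 11.3, 11.9, 10.2 and 16.3 in SP-NT replicates 19, 36, 37 and 38, and 16.6, 14.2, 18.7 and 22.7 in SP-HT replicates 02, 10, 26 and 33. All SP-NT hamsters lay below all LP-NT hamsters, with SP-NT replicate 38 close to the lowest of them, and the SP-HT values spanned those of LP-NT. The log2(FC) was -0.62 (standard error 0.145) from LP-NT to SP-NT and 0.53 (standard error 0.169) from SP-NT to SP-HT, and between SP-HT and LP-NT it was -0.07 (standard error 0.139). None of these passed the quasi-likelihood test of edgeR, with p adjusted over all genes by the method of Benjamini and Hochberg (edgeR adjusted p = 0.643, 0.125 and 0.852). DESeq2 gave adjusted p = 0.036 for photoperiod and 0.034 for torpor, while with effective lengths added to DESeq2 neither passed (adjusted p = 0.0626 and 0.0614). Over all alternatives the adjusted p, from edgeR, DESeq2 or limma, ran from 0.036 to 0.994 for photoperiod and from 0.034 to 0.246 for torpor.

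Record 18109 was lower in torpor. It had 4.16, 2.6, 3.32 and 2.88 CPM in LP-NT replicates 01, 02, 03 and 05, and 2.71, 2.79, 2.72 and 3.07 CPM in SP-NT replicates 19, 36, 37 and 38. In SP-HT replicates 02, 10, 26 and 33 it had 1.31, 1.11, 1.69 and 1.03 CPM, resting on 21 to 36 counts per hamster. All 4 torpid hamsters lay below all 8 normothermic hamsters, which overlapped among themselves. The log2(FC) was -1.13 (standard error 0.188) against SP-NT, with edgeR adjusted p = 0.0148, and -1.32 (standard error 0.223) against LP-NT, with edgeR adjusted p = 0.0249. The photoperiod difference was -0.20 (standard error 0.173, edgeR adjusted p = 0.913). Without SP-NT replicate 38 the torpor difference was -1.09 and missed the threshold (edgeR adjusted p = 0.0534), in a range from 0.000436 to 0.0534 over all alternatives. Against LP-NT the call was lost without LP-NT replicate 03 or SP-HT replicates 02, 10 or 33, each alone (edgeR adjusted p = 0.071, 0.0844, 0.0713 and 0.0808), and the lowest value, in DESeq2, was 0.000203.

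Pomc encodes the precursor of α-MSH. Its values were 52.4, 30.3, 24.8 and 25.9 CPM in LP-NT replicates 01, 02, 03 and 05. They were 20.3, 16.2, 11.4 and 16.7 CPM in SP-NT replicates 19, 36, 37 and 38, and 12.9, 13.1, 12.2 and 10.6 CPM in SP-HT replicates 02, 10, 26 and 33. Every hamster in short photoperiod lay below every hamster in long photoperiod, LP-NT replicate 01 lay far above its group, and SP-NT replicate 37 was the only SP-NT hamster within the range of SP-HT. In bulk tissue, fewer cells of a type and less RNA per cell cannot be told apart.

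From LP-NT to SP-HT Pomc fell by 1.44 on the log2 scale (standard error 0.215, edgeR adjusted p = 0.0128), to 0.369 times the LP-NT level. Without LP-NT replicate 01 this difference was -1.14 (edgeR adjusted p = 0.00133), and without SP-HT replicate 26 or 33 it missed the threshold (edgeR adjusted p = 0.0555 and 0.057), the highest of the alternatives, which began at 1.98e-08 in DESeq2. Between SP-NT and LP-NT the log2(FC) was -1.05 (standard error 0.246), but with edgeR adjusted p = 0.643 the gene was not called, although it was the 40th of 16199 by p, with unadjusted p = 0.00159 in that edgeR fit. DESeq2 called it, with adjusted p = 0.0122, and over all alternatives the adjusted p ran from 0.0122 to 1. The log2(FC) without LP-NT replicate 01 was -0.74 (edgeR adjusted p = 0.586). The torpor difference within short photoperiod was -0.40 (standard error 0.151, edgeR adjusted p = 0.186), and without SP-NT replicate 37 it was -0.54 and called (edgeR adjusted p = 0.0491), in a range from 0.0491 to 0.408 over the alternatives.

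Pomc is also made in the pituitary, and a marker of the neighbouring pars tuberalis moved with it. Of the 4 markers listed for that tissue 1 could be matched to a record, Cga, which encodes the common α-subunit of glycoprotein hormones. It was matched by its printed photoperiod fold change, so that difference was fixed beforehand. Cga had 45.5, 20.9, 16.2 and 26.7 CPM in LP-NT replicates 01, 02, 03 and 05, with its highest value in the same hamster as Pomc. It had between 0.734 and 1.82 CPM in SP-NT and between 0.343 and 1.93 CPM in SP-HT. The log2(FC) of Cga was -4.58 (standard error 0.38) between SP-NT and LP-NT and -4.81 (standard error 0.444) between SP-HT and LP-NT, with edgeR adjusted p = 0.00111 and 0.00124. In torpor Cga differed by -0.25 (standard error 0.46, edgeR adjusted p = 0.823). None of the 9 markers of anterior and intermediate pituitary could be matched, and the part of pars tuberalis or pituitary in the Pomc difference was not tested.

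The record taken as Agrp, the antagonist made beside NPY, was near the limit of detection. It was 1 of 17 that fitted the printed values, and whether it holds all mRNA of that gene was not tested. It had between 5 and 10 counts per hamster in LP-NT, between 3 and 14 in SP-NT and between 3 and 11 in SP-HT, where 1 count corresponded to between 0.0403 and 0.049 CPM. The group means were 0.359 ± 0.0949 CPM (SD, n = 4), 0.333 ± 0.187 CPM (SD, n = 4) and 0.326 ± 0.162 CPM (SD, n = 4), and the groups overlapped throughout. The log2(FC) was -0.11 (standard error 0.441) for photoperiod, -0.02 (standard error 0.505) for torpor and -0.13 (standard error 0.424) between SP-HT and LP-NT. None of these was called (edgeR adjusted p = 0.974, 0.987 and 0.921), which at so few counts does not show equal levels.

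Cartpt, which encodes the precursor of CART, had the highest level per length of the 10 records. Its values were 70.5, 82.0, 68.8 and 59.0 CPM in LP-NT replicates 01, 02, 03 and 05 and 63.7, 69.97, 66.4 and 63.1 CPM in SP-NT replicates 19, 36, 37 and 38. In SP-HT replicates 02, 10, 26 and 33 they were 53.4, 39.2, 47.3 and 77.4 CPM. Among the torpid hamsters 3 lay below every normothermic hamster, and SP-HT replicate 33 lay above all but LP-NT replicate 02. The torpor log2(FC) was -0.28 (standard error 0.165, edgeR adjusted p = 0.403), and without SP-HT replicate 33 it was -0.50 and called (edgeR adjusted p = 0.0368), in a range from 0.0368 to 0.669 over the alternatives. The differences for photoperiod, -0.09 (standard error 0.0906), and between SP-HT and LP-NT, -0.36 (standard error 0.182), did not pass (edgeR adjusted p = 0.917 and 0.389).

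**Figure D1:**
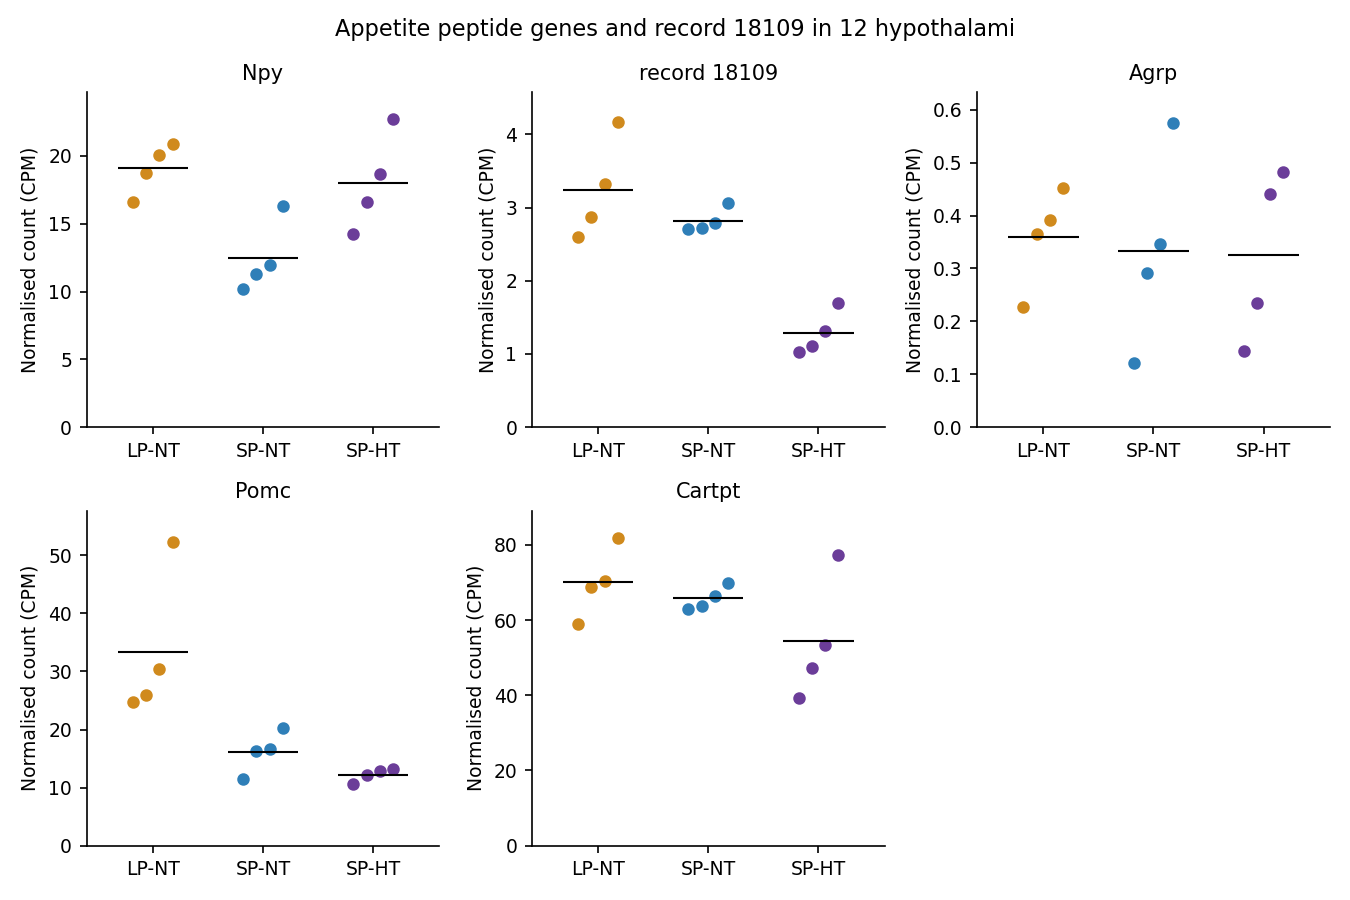
Normalised counts (CPM, each vertical axis starting at 0) of Npy, record 18109, Agrp, Pomc and Cartpt in the 12 hamsters, by group and ordered by value within a group; a dot is 1 hamster and a line the mean of 4. All 4 SP-HT hamsters lie at or below 1.69 CPM for record 18109 and at or below 13.1 CPM for Pomc, while the lowest LP-NT hamster has 2.6 and 24.8 CPM.

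Lepr encodes the leptin receptor, and none of its groups were set apart. It had 7.33, 11.9, 10.4 and 12.7 CPM in LP-NT replicates 01, 02, 03 and 05, between 8.37 and 13.1 CPM in SP-NT and between 9.32 and 10.0 CPM in SP-HT. The values of SP-HT lay inside the range of both other groups. With a coefficient of variation of 3.13% they were closer together than counting error alone would give on average (6.97%), against 22.3% for LP-NT and 18.6% for SP-NT. The log2(FC) was 0.10 (standard error 0.186), -0.23 (standard error 0.133) and -0.13 (standard error 0.161) for photoperiod, torpor and SP-HT against LP-NT (edgeR adjusted p = 0.948, 0.389 and 0.773). The photoperiod value was -0.04 without LP-NT replicate 01, the hamster with the least Lepr.

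Socs3, a leptin-induced inhibitor of the same receptor, had between 9.96 and 12.2 CPM in LP-NT, between 10.4 and 11.01 CPM in SP-NT and between 7.81 and 12.1 CPM in SP-HT. The 4 torpid hamsters formed pairs, with 7.81 and 8.22 CPM in SP-HT replicates 10 and 26 and 11.1 and 12.1 CPM in SP-HT replicates 33 and 02. The 3 log2(FC) lay between -0.13 and 0.02, with edgeR adjusted p between 0.686 and 0.982.

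Stat3, the transcription factor that carries the leptin signal to the nucleus, had between 53.9 and 74.7 CPM in LP-NT, between 65.3 and 70.9 CPM in SP-NT and between 55.7 and 67.0 CPM in SP-HT. Its torpor log2(FC) was -0.14 (standard error 0.0623, edgeR adjusted p = 0.276). This record joins 13 transcripts of the assembly, and its effective length ran from 2763 to 3975 bases over the hamsters, with means of 3557 bases in SP-NT and 3221 in SP-HT. With the lengths taken into account the torpor difference was 0.01 (adjusted p = 0.97 in DESeq2, the highest of the alternatives, which began at 0.187), so its direction turned with this setting, and the cause was not tested.

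Ptpn1 encodes PTP1B, which dephosphorylates JAK2. It had 45.1, 42.1, 42.1 and 37.5 CPM in LP-NT replicates 01, 02, 03 and 05 and 44.8, 37.8, 42.7 and 37.0 CPM in SP-NT replicates 19, 36, 37 and 38. In SP-HT replicates 02, 10, 26 and 33 it had 37.4, 32.9, 32.5 and 34.2 CPM, each below every LP-NT hamster, and 3 of them below every SP-NT hamster. The log2(FC) was -0.25 (standard error 0.078) against SP-NT and -0.28 (standard error 0.0788) against LP-NT, and neither was called (edgeR adjusted p = 0.125 and 0.123). Against LP-NT, DESeq2 gave adjusted p = 0.0479, the only setting of those run in which Ptpn1 passed, and the highest over the alternatives was 0.289.

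Mc4r, the melanocortin receptor with the larger part in food intake, had 3.94, 2.65, 2.41 and 3.20 CPM in LP-NT replicates 01, 02, 03 and 05. It had 1.93, 2.12, 2.55 and 1.65 CPM in SP-NT replicates 19, 36, 37 and 38 and 1.88, 1.3, 1.27 and 1.81 CPM in SP-HT replicates 02, 10, 26 and 33. All SP-HT hamsters lay below all LP-NT hamsters, and SP-NT lay between and overlapped both. The log2(FC) between SP-HT and LP-NT was -0.95 (standard error 0.221), which edgeR did not call (adjusted p = 0.0691) and which passed in DESeq2 (adjusted p = 0.0157), in DESeq2 with effective lengths (adjusted p = 0.0256) and in an edgeR fit of all 12 hamsters (adjusted p = 0.026). Over the alternatives this adjusted p ran from 0.0157 to 0.192. The photoperiod and torpor differences were -0.56 (standard error 0.205) and -0.39 (standard error 0.212), neither called (edgeR adjusted p = 0.913 and 0.352). The counts behind these values were 53 to 87 per hamster in LP-NT, 41 to 59 in SP-NT and 27 to 43 in SP-HT.

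Mc3r, the other neural melanocortin receptor, had between 4.20 and 5.02 CPM in LP-NT, between 3.53 and 4.25 CPM in SP-NT and between 3.09 and 3.98 CPM in SP-HT. All torpid hamsters lay below all LP-NT hamsters here too, with a log2(FC) of -0.32 (standard error 0.143, edgeR adjusted p = 0.332). Photoperiod gave -0.21 (standard error 0.127) and torpor -0.12 (standard error 0.137), with edgeR adjusted p = 0.913 and 0.692. The ratio of Mc4r to Mc3r in TPM, a level per length, within a hamster was 0.673 ± 0.123 (SD, n = 4) for LP-NT, 0.529 ± 0.0914 (SD, n = 4) for SP-NT and 0.430 ± 0.0621 (SD, n = 4) for SP-HT. The highest torpid hamster, at 0.477, lay below the lowest LP-NT hamster, at 0.524.

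**Figure D2:**
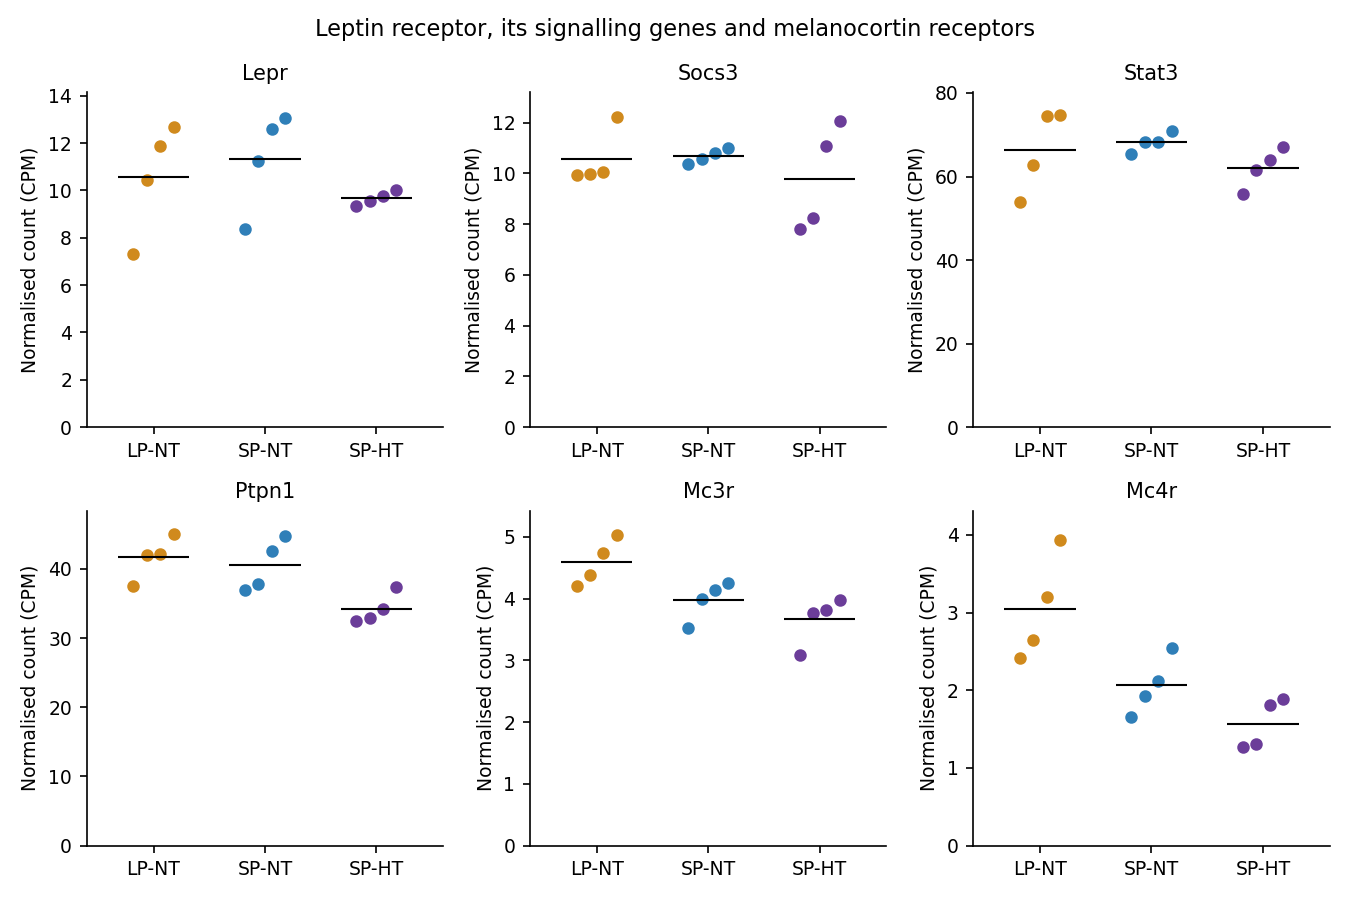
Normalised counts (CPM, each vertical axis starting at 0) of Lepr, Socs3, Stat3, Ptpn1, Mc3r and Mc4r in the 12 hamsters, by group and ordered by value within a group; a dot is 1 hamster and a line the mean of 4. SP-HT lies wholly below LP-NT for Ptpn1, Mc3r and Mc4r, and the groups overlap for Lepr, Socs3 and Stat3.

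Over the 10 records, the comparison of photoperiod at normal body temperature (SP-NT against LP-NT) called 0 with edgeR, where 6 of 16199 genes tested were called (0.0370%). At an unadjusted p under 0.05 there were 2 of the 10, Pomc and Mc4r, against 4.84% of all genes, and DESeq2 called 1, Pomc, against 0.212% of all genes. Pomc was also the only one of the 10 lower in every SP-NT hamster than in every LP-NT hamster, as were 1.72% of all genes. The median log2(FC) of the 10 was -0.10, beside -0.0024 over all genes.

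In torpor within short photoperiod (SP-HT against SP-NT) edgeR called 1 of the 10, record 18109, where it called 2.40% of all genes (389 of 16195), 307 of them lower and 82 higher by the labels. DESeq2 had 604 lower of 1017, and with effective lengths 456 lower of 759. The study printed the same total for torpor, 759 genes, but with 456 of them higher. Of the 10, 3 had an unadjusted p under 0.05 (record 18109, Pomc and Ptpn1), against 18.4% of all genes. Without record 18109, whose name was rejected, edgeR and DESeq2 each called 0 of the 9 others, with 2 at an unadjusted p under 0.05. With 1 hamster left out at a time it called 104 genes at the lowest, when SP-NT replicate 38 was missing, and 318 at the highest, when SP-HT replicate 33 was missing, and between 0 and 2 of the 10. DESeq2 called the same 1 against 6.96% of all genes, and gave no adjusted p for Agrp. Record 18109 was the only one of the 10 that was lower in every torpid hamster without overlap, as were 7.39% of all genes. All 10 log2(FC) were negative, with a median of -0.24, while 50.6% of all genes were lower and their median was -0.0027. The sign turned for Agrp in 5 alternatives and for Stat3 with effective lengths.

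Torpid hamsters against those in long photoperiod (SP-HT against LP-NT) differ in photoperiod and body temperature together. Here edgeR called 2 of the 10, Pomc and record 18109, where it called 1.37% of all genes (221 of 16157), and DESeq2 called 4, with Mc4r and Ptpn1 added, where it called 4.74%. At an unadjusted p under 0.05 there were the same 4 of the 10, against 15.1% of all genes. Without record 18109, edgeR called 1 of the 9 others and DESeq2 3. With 1 hamster left out at a time edgeR called between 55 genes, without SP-HT replicate 26, and 200, without LP-NT replicate 01, and between 0 and 2 of the 10. Of the 10, 5 were lower in every torpid hamster than in every LP-NT hamster, namely record 18109, Pomc, Ptpn1, Mc3r and Mc4r, as were 6.83% of all genes. The median log2(FC) of the 10 was -0.30, beside -0.00086 over all genes, and 50.2% of all genes were lower. The 3 comparisons share their samples by pairs, so their values are given side by side and are not independent.

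**Figure D3:**
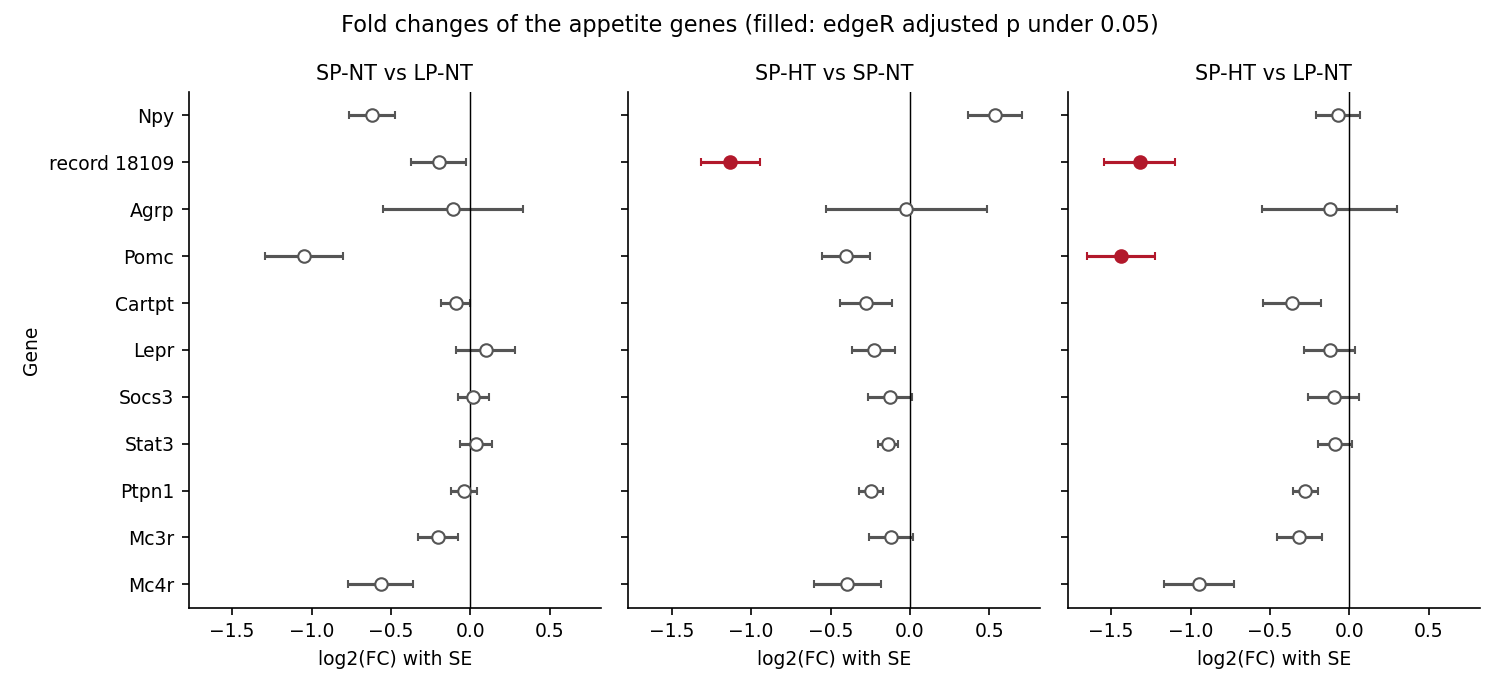
Log2(FC) (horizontal axis, with standard error bars) of Npy and the 10 chosen records in the 3 comparisons, from left to right photoperiod, torpor and both together; filled red points had an edgeR adjusted p under 0.05. Pomc lies at -1.05, -0.40 and -1.44 and record 18109 at -0.20, -1.13 and -1.32, while Npy alone is positive in the middle panel, at 0.53.

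Levels of different genes were compared per length, in TPM. Averaged over the 12 hamsters, Cartpt had 131.6 ± 26.2 TPM (SD, n = 12) and was followed by Pomc with 60.7 ± 33.4 TPM (SD, n = 12), Stat3 with 52.3 ± 6.89 TPM (SD, n = 12) and Ptpn1 with 24.8 ± 3.01 TPM (SD, n = 12). Socs3 had 9.65 ± 1.45 TPM (SD, n = 12), Mc3r 6.11 ± 0.763 TPM (SD, n = 12) and Lepr 5.32 ± 0.985 TPM (SD, n = 12). Record 18109 had 3.75 ± 1.49 TPM (SD, n = 12), Mc4r 3.38 ± 1.15 TPM (SD, n = 12) and Agrp 0.613 ± 0.247 TPM (SD, n = 12). Npy, with 36.3 ± 8.49 TPM (SD, n = 12), would stand between Stat3 and Ptpn1. It lay above Ptpn1 in 10 of the 12 hamsters, below Stat3 in 11 and below Pomc in 10.

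Some steps in this order held in each hamster and others did not. Stat3 lay above Ptpn1, Ptpn1 above Socs3, Socs3 above Mc3r and Mc4r above Agrp in all 12 hamsters, and Cartpt lay above Pomc in 11, with LP-NT replicate 01 as the exception. Pomc lay above Stat3 in all 4 LP-NT hamsters but in 1 of 4 in SP-NT and 0 of 4 in SP-HT. Mc3r lay above Lepr in 4 of 4 hamsters of LP-NT, 1 of 4 of SP-NT and 3 of 4 of SP-HT, and Lepr above record 18109 in 2, 3 and 4 of 4. Record 18109 lay above Mc4r in 3 of 4 hamsters of LP-NT, 4 of 4 of SP-NT and 1 of 4 of SP-HT.

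**Figure D4:**
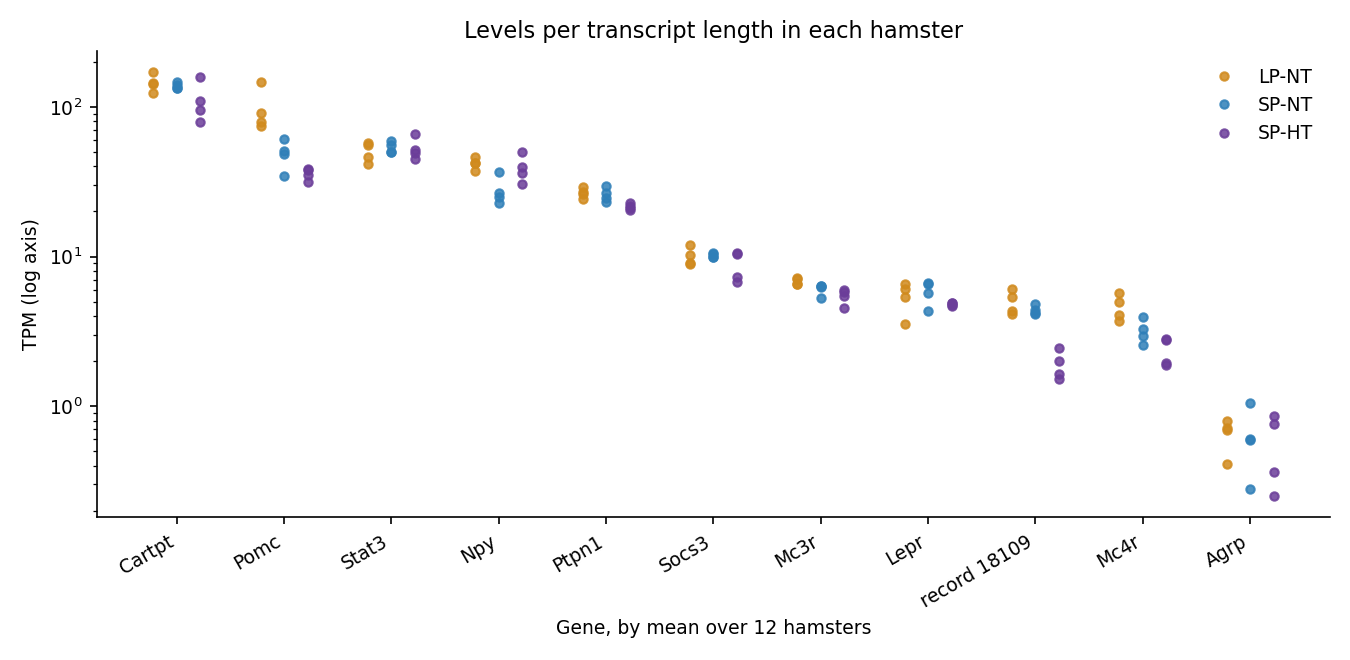
Levels per length (TPM, logarithmic vertical axis) of the 10 chosen records and Npy, ordered by their mean over the 12 hamsters; each dot is 1 hamster and colour gives the group. Cartpt is highest at 79.5 to 171.3 TPM and Agrp lowest at 0.25 to 1.05 TPM, and Pomc lies above Stat3 in all 4 LP-NT hamsters and in 1 SP-NT hamster.

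The balance of the peptides within a hamster needs no scaling between libraries. The ratio of Npy to Pomc in TPM was 0.286, 0.511, 0.498 and 0.536 in LP-NT replicates 01, 02, 03 and 05 and 0.413, 0.547, 0.661 and 0.730 in SP-NT replicates 19, 36, 37 and 38. In SP-HT replicates 02, 10, 26 and 33 it was 0.954, 0.802, 1.13 and 1.59. Each torpid hamster had a higher ratio than each of the 8 normothermic hamsters, whose groups overlapped. On the log2 scale the group means were -1.17 ± 0.427 (SD, n = 4), -0.80 ± 0.361 (SD, n = 4) and 0.12 ± 0.422 (SD, n = 4), given as a description with no test. The ratio of Cartpt to Pomc was 1.59 ± 0.447 (SD, n = 4) for LP-NT, 2.97 ± 0.793 (SD, n = 4) for SP-NT and 3.18 ± 1.32 (SD, n = 4) for SP-HT, with all hamsters in short photoperiod above all in long photoperiod.

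**Figure D5:**
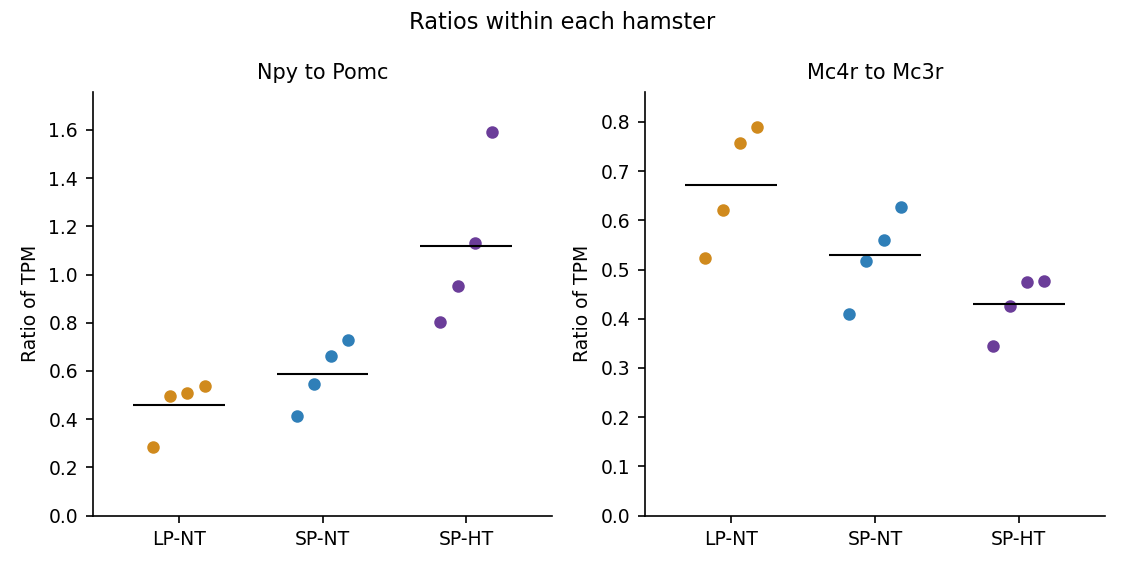
Ratio of Npy to Pomc (left) and of Mc4r to Mc3r (right), both in TPM within 1 hamster, by group and ordered by value within a group; a dot is 1 hamster, a line the mean of 4, and both axes start at 0. The Npy to Pomc ratio is 0.802 to 1.59 in SP-HT and at most 0.730 in the normothermic groups, and the Mc4r to Mc3r ratio is at most 0.477 in SP-HT and at least 0.524 in LP-NT.

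The spread between hamsters differed among the genes. For Pomc the coefficient of variation was 38.7% for LP-NT, 22.5% for SP-NT and 9.14% for SP-HT, where counting error alone gives 3.67%, 5.06% and 6.19%. Cartpt had 13.5%, 4.79% and 30.3% in the same groups, with counting errors of 2.51% to 2.94%. For Mc3r, with 64 to 111 counts per hamster, the coefficients of 7.98%, 7.93% and 10.8% were no larger than those of counting error (9.90%, 10.2% and 11.3%).

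Of 4 pairs of genes examined over the 12 hamsters, Mc3r and Mc4r varied together, with Pearson's r = 0.808 (permutation p = 0.00157, adjusted p = 0.00628 over the 4 pairs) and Spearman's rho = 0.804 (permutation p = 0.0024, adjusted p = 0.0096). With values centred on the group means r was 0.485 (permutation p = 0.111, adjusted p = 0.444), and without SP-HT replicate 10 and LP-NT replicate 01, the hamsters farthest from the median of Mc3r, r was 0.617 (permutation p = 0.0562, adjusted p = 0.225). In neither case did the relation pass, and leaving out the extremes of Mc3r also narrows its range. Npy with Agrp (r = 0.058, permutation p = 0.858, rho = 0.259, permutation p = 0.417), Pomc with Cartpt (r = 0.397, permutation p = 0.201, rho = 0.294, permutation p = 0.354) and Lepr with Socs3 (r = 0.178, permutation p = 0.579, rho = 0.042, permutation p = 0.905) did not pass, with adjusted p of 0.858, 0.402 and 0.772 for r, and of 0.556, 0.556 and 0.905 for rho. Without the 2 hamsters farthest from the median of the first gene r was 0.508, 0.178 and 0.177 for these pairs (permutation p = 0.135, 0.63 and 0.622).

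Among the 13939 records with a mean of at least 1 CPM, the 3 most like Pomc over the 12 hamsters had r = 0.944, 0.933 and 0.921 in log2 CPM, and of those with a matched name Cga was nearest, with r = 0.911, followed by Gpr50, a melatonin-related receptor, with r = 0.826. The 3 records most like record 18109 had r = 0.986, 0.977 and 0.968, with Glut3, a neuronal glucose transporter, at 0.884 and Npy1r at 0.879 nearest among the named. For Cartpt the 3 highest were 0.936, 0.913 and 0.907, with Mc3r at 0.678 nearest among the matched names and Socs3, whose name could not be checked, at 0.742. For Agrp they were 0.919, 0.913 and 0.883, with the taste receptor gene Tas1r3 at 0.827 nearest among the named. Npy had the lowest 3 of these 5 genes, 0.823, 0.821 and 0.816, with the vasopressin receptor gene Avpr1a at 0.625 nearest among the named. These r are the highest over all those records, include the differences between groups and carry no test. Cga got its name through its printed photoperiod fold change, and Pomc was also lower in short photoperiod. The nearness of Cga to Pomc was therefore in part fixed beforehand. The nearest records are given without identifiers, since the files give them no names.

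Of 51 further genes of the appetite pathway, 3 could be matched to a record, and edgeR called 0 of the 3 in each comparison, with 0, 1 and 2 of them at an unadjusted p under 0.05 for photoperiod, torpor and SP-HT against LP-NT, where DESeq2 called 0, 0 and 1. The shares of all genes under that p were 4.84%, 18.4% and 15.1%. Of all genes, edgeR called 0.0370%, 2.40% and 1.37% in the same order, and DESeq2 0.212%, 6.96% and 4.74%. Npy1r, the receptor through which NPY raises feeding, had 18.5 ± 0.873 CPM (SD, n = 4) for LP-NT, 16.7 ± 0.335 CPM (SD, n = 4) for SP-NT and 14.0 ± 0.810 CPM (SD, n = 4) for SP-HT, and the groups did not overlap. Of all genes, 1.72%, 7.39% and 6.83% were lower without overlap for photoperiod, torpor and SP-HT against LP-NT. The log2(FC) of Npy1r between SP-HT and LP-NT was -0.40 (standard error 0.086, edgeR adjusted p = 0.0529, DESeq2 adjusted p = 0.00414), with -0.15 for photoperiod and -0.25 for torpor (edgeR adjusted p = 0.913 and 0.0998). Npy2r, the receptor by which NPY neurons restrain themselves, gave -0.58 (standard error 0.235) between SP-HT and LP-NT, and Insr, the insulin receptor, 0.16 (standard error 0.146), with edgeR adjusted p = 0.274 and 0.668. Of 70 cell type markers 3 were matched. For photoperiod edgeR called 1 of the 3, Cga, which was lower. Cga was printed by the study among its most extreme photoperiod changes and was matched by that value. Its call was therefore fixed beforehand, and the share of all genes called, 0.0370%, is no measure for it. For torpor edgeR called 0 of the 3, with 0 called by DESeq2. Between SP-HT and LP-NT edgeR called 2, Cga and Vim, both lower, against 1.37% of all genes. Cga was chosen through a difference from the same LP-NT hamsters, so only Vim, which was called, and Avp, which was not, can be set beside that share. At an unadjusted p under 0.05 there were 1, 1 and 3 of the 3 markers, beside the shares of all genes under that p given above. Cga was counted in the first and the last of these, where it is no test. Vim marks tanycytes and ependyma. It had 112.7 ± 14.0 CPM (SD, n = 4) for LP-NT, 90.0 ± 23.4 CPM (SD, n = 4) for SP-NT and 74.1 ± 9.28 CPM (SD, n = 4) for SP-HT, and was called between SP-HT and LP-NT (log2(FC) -0.60, standard error 0.109, edgeR adjusted p = 0.0293). Avp, the vasopressin gene of hypothalamic neurons, was present at 227.7 to 907.3 TPM. Its log2(FC) was -0.03 (standard error 0.22) for photoperiod, -0.60 (standard error 0.267) for torpor and -0.63 (standard error 0.232) between SP-HT and LP-NT, none of them called (edgeR adjusted p = 0.984, 0.262 and 0.231). The part of these cell types in the differences above was not tested.

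The effect of photoperiod was compared between the labelled sexes. edgeR's interaction term called 0 of the 10 records and 0 of 16199 genes, with 1 of the 10 at an unadjusted p under 0.05, against 4.89% of all genes. That record was Stat3 (unadjusted p = 0.0308 and adjusted p = 0.884 in edgeR). For Pomc the female minus male difference of the log2(FC) was 0.04 (standard error 0.449), with means of 38.6 CPM in males and 28.1 CPM in females of LP-NT and of 18.5 CPM and 13.8 CPM in SP-NT. Leaving out SP-NT replicate 19, whose sex label is in doubt, left 1 male in SP-NT, so the interaction in that fit was no test. Torpor and sex were not tested together, since SP-HT had 1 female.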

How the data were processed

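The authors removed adapters with Trim Galore 0.6.6 after FastQC 0.11.9, pooled the reads of all hamsters into a single de novo assembly, kept the transcripts that hit the mouse proteome (GRCm39) and grouped them by the mouse GeneID of the best hit, so that a record can join isoforms and paralogs. Reads of each sample were then mapped with Bowtie 1.3.0 and quantified with RSEM 1.3.1. The deposited expected counts are not normalised. TPM and the effective length of each record and sample were also deposited by the authors.

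Expected counts were rounded to whole numbers. Each pair of groups (8 samples) was compared in R 4.3.3 with edgeR 4.0.16 (TMM, quasi-likelihood test, no covariates, genes summing to 10 counts or more over the 8 samples, Benjamini-Hochberg adjustment over all genes tested, called at an adjusted p under 0.05). DESeq2 1.42.0, limma 3.58.1 and other filters, scalings and samples were alternatives. CPM used TMM factors over the 12 samples, and log2 CPM a prior count of 2. Correlations used two-sided permutation tests with 100000 resamples. The procedure was tested on simulated counts.

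Names came from a match to 68 named genes of the study by DESeq2 with effective lengths (log2(FC) within 0.0051, adjusted p within 0.0006, torpor sign not used because as labelled it was opposite in all 59 matched records with a torpor value), which gave 60 single records. Cga and Rbm3-ps were matched to 1 decimal of the log2(FC) only. In that setting the size of a named gene's fold change was thus fixed by the match. The match of photoperiod values with SP-HT in place of SP-NT, the record taken as Npy and the sex interaction without SP-NT replicate 19 were also chosen after the data were seen. Named genes were the 10 members, list genes called by edgeR, the 3 pathway genes with the smallest p in each comparison and the 3 records most like each peptide gene, which are given by r alone. Avp, Rbm3-ps, record 18109 in the likeness search and the nearest records with a name were added after their values were seen. Of 51 pathway genes 3 and of 70 markers 3 could be matched, and the others were left out. The members and lists were chosen with earlier results of these data known. Replicates of a group differed by more than counting error (chi-square per degree of freedom 7.01 to 39.2 over 18 pairs).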

Additional observations from a re-analysis of the deposited data

Results flagged for a closer look

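In 1 of 33 sets of 4 hamsters, 11 genes in 3 groups, a single hamster stood far from the others by Dixon's criterion, with a gap to its neighbour over 0.829 of the whole range. Socs3 had 12.2 CPM in LP-NT replicate 02, while the 3 other LP-NT hamsters had 9.96 to 10.0 CPM (gap 0.961 of the range). Chance alone gives about 1 such set in 20.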

How the results depend on the processing

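Of the values of log2(FC) under an alternative, for Npy and the 10 records, 489 kept direction and side of the threshold, 19 turned direction, 10 passed where the reported fit did not and 7 no longer passed. The 489 include fits of Agrp to which DESeq2 gave no adjusted p, so that only its direction was kept there. The cause was not tested for any change below. For photoperiod, DESeq2 called 33 genes and 1 of the 10 members, and with effective lengths 32 genes and 1 member, against 6 and 0 in edgeR. For torpor, against 389 genes, DESeq2 called 1017, DESeq2 with effective lengths 759 and edgeR with sex as covariate 242. Between SP-HT and LP-NT, against 221 genes, DESeq2 called 706, with effective lengths 623, and edgeR on all 12 samples 612, while members called were 4, 3 and 3 against 2. Leaving out 1 hamster at a time gave 5 to 8, 104 to 318 and 55 to 200 genes, and 0 to 0, 0 to 2 and 0 to 2 members.

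With effective lengths the log2(FC) of Socs3 for photoperiod was -0.0018, and that of Stat3 was 0.015 for torpor and 0.092 between SP-HT and LP-NT. Agrp in torpor was 0.032 in limma with voom and 0.030 with sex as covariate. Leaving out 1 hamster at a time, photoperiod differences ran from -0.51 to 0.17 for Agrp, from -0.044 to 0.22 for Lepr, from -0.0098 to 0.095 for Socs3, from -0.051 to 0.095 for Stat3 and from -0.092 to 0.00064 for Ptpn1. Agrp ran from -0.30 to 0.38 in torpor and from -0.38 to 0.11 between SP-HT and LP-NT, where Npy ran from -0.20 to 0.025. Centred on group means, r was -0.037 for Npy with Agrp, -0.121 for Pomc with Cartpt and 0.485 for Mc3r with Mc4r, and the last was 0.617 without 2 hamsters. Ordered by CPM without length, Stat3 came before Cartpt, Ptpn1 and Pomc.

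With 4 hamsters a group, a missed threshold does not show equal levels. Agrp, with 3 to 14 counts per hamster, could not show a moderate difference. Transmitters and photoperiod, and in SP-HT against LP-NT photoperiod and torpor, cannot be told apart. No paired analysis was possible because each hamster gave 1 sample.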
